A study of Drosophila melanogaster with 6 samples.

Results

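Act5C, Act42A, chic, tsr, Arp3, SCAR, Moe, Lasp, sqh and zip encode the actin monomers of Drosophila S2 cells and the proteins that build, shorten, anchor and contract their filaments. These 10 genes were taken from the deposited FPKM table by their CG numbers, and no measured value entered the rule, although the list was drawn up with earlier results of these data known. They were 10 of 14012 genes in the table, with 29 of its 21081 transcript rows, and all 10 were among the 7308 genes that passed a filter of a mean of at least 1 FPKM over the 6 libraries. FPKM counts sequenced fragments per length of transcript and per mapped fragments of the library, and the values below are gene sums, the FPKM added over the transcripts of each gene. S2 cells are a line derived from late embryos. The S2-DRSC stock was used at passages 10 to 15. RNA was sequenced from 2 samples in which PARP1 had been knocked down by double-stranded RNA (PARP1 KD), 2 samples treated with PJ34, an inhibitor of PARylation, and 2 non-treated controls. The PARP1 KD libraries came from 100 and 500 units of double-stranded RNA, given in nanograms in one label and in micrograms in another, and the PJ34 libraries from 10 and 0.3 µM. Neither treatment had its own mock treatment among these libraries. The column names gave the treatment but not the dose, so no dose was assigned and the libraries of a group are called library 1 and library 2 in the order of the table. The comparison asked how transcript levels depended on the PARP1 protein and on its PARylation activity, by which PARP1 attaches poly(ADP-ribose) to proteins.

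Actin monomers polymerize into polar filaments that give a cell its cortex and its shape. Profilin feeds monomers to growing ends, cofilin cuts and disassembles old filaments, and the Arp2/3 complex, switched on by proteins of the WAVE and WASP families, starts new filaments as branches of existing ones. Ezrin, radixin and moesin proteins tie filaments to the plasma membrane, and non-muscle myosin II pulls on them. S2 cells are used widely for work on these proteins because they spread a broad, actin-rich lamella.

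The libraries differed in ways that touch every gene below. Relative depth, estimated from the spacing of the lowest values, lay between 0.883 and 1.11 of control library 1, and 1 fragment on a transcript of 1500 bases was worth between 0.0251 and 0.0317 FPKM. Parp1 had 16.7 and 10.2 FPKM in the PARP1 KD libraries, 39.3 and 50.2 FPKM in the PJ34 libraries and 51.6 and 29.9 FPKM in the controls. Both PARP1 KD libraries thus lay below both controls, with a log2 difference of −1.51 (SE 0.55, limma adjusted p = 0.9996). The 10 most abundant genes of a library took 15.8% and 15.6% of its FPKM under PARP1 KD, 26.9% and 38.1% under PJ34 and 11.6% and 21.4% in the controls. Of 8 markers of hemocytes, the lineage of S2 cells, 6 reached a mean of 1 FPKM. The 8 summed to 1309 and 1144 FPKM under PARP1 KD, 787 and 113 FPKM under PJ34 and 1221 and 1432 FPKM in the controls. In each library the largest part came from Col4a1, with 729 and 637, 376 and 39.0, and 633 and 808 FPKM in the same order. Under PJ34 against control, 5 of the 6 were below 0, against 79.9% of all genes. The exception, eater, had 44.5 and 15.4 FPKM under PJ34 and 4.74 and 25.8 FPKM in the controls (log2 difference 1.14, SE 0.83). Of the 6, 0 passed the test in any comparison, where at most 1.60% of all genes passed in either direction. Pxn, which encodes peroxidasin, differed strongly between the controls, with 4.09 and 102 FPKM. Of 8 muscle markers, 7 were below a mean of 1 FPKM, and the sums of all 8 ranged from 1.15 to 6.78 FPKM over the 6 libraries. Of 4 neuron markers 2 were below that mean, and the sums ranged from 1.18 to 8.27 FPKM. Of the 2 tested, brp passed as lower in the PJ34 than in the PARP1 KD libraries (log2 difference −2.34), against 0.972% of all genes. The other, elav, went the opposite way (log2 difference 1.11) and did not pass. In bulk RNA, fewer cells of a type and less RNA per cell cannot be told apart.

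The 2 cytoplasmic actin genes were among the most abundant members. Act5C (CG4027) spans 5794896 to 5798823 on chromosome X of the dm3 build and encodes the main actin of proliferating cells. Its level was 1923 and 1548 FPKM in the PARP1 KD libraries, 853 and 161 FPKM in the PJ34 libraries and 2814 and 1378 FPKM in the controls. Both PJ34 libraries lay below all others, whereas the PARP1 KD libraries lay between the controls. The group means were 1736 ± 265 FPKM under PARP1 KD, 507 ± 489 FPKM under PJ34 and 2096 ± 1015 FPKM in the controls (SD, n = 2 each). The second cytoplasmic actin gene, Act42A (CG12051; 2R, 1901414 to 1903190, overlapping the span of Pngl), had 1066 and 767 FPKM under PARP1 KD, 292 and 52.9 FPKM under PJ34 and 2066 and 486 FPKM in the controls. Its order of libraries was the same as for Act5C, and control library 2 held 0.24 of the Act42A level of control library 1. The share of the summed FPKM of the actin pair that came from Act42A was 35.7% and 33.1% under PARP1 KD, 25.5% and 24.7% under PJ34 and 42.3% and 26.1% in the controls. This share thus differed more between the controls than between control library 2 and either PJ34 library. Against control, the log2 difference of FPKM + 1 under PJ34 was −2.41 (SE 0.70) for Act5C and −3.00 (SE 0.81) for Act42A, with limma adjusted p = 0.117 and 0.110. Neither passed the threshold of an adjusted p of 0.05 with all 6 libraries. When PJ34 library 1 was left out, the differences were −3.60 for Act5C and −4.22 for Act42A. When control library 2 was left out, they were −2.92 and −4.04. Without PJ34 library 2 the differences were −1.21 for Act5C and −1.78 for Act42A. Each of these fits left 1 library in a group, so only the size of the difference is given. The 4 muscle actin genes, Act57B, Act79B, Act87E and Act88F, were each below a mean of 1 FPKM and summed to between 0.338 and 1.90 FPKM per library, so none was tested. Actin genes share long coding stretches, so reads assigned between Act5C, Act42A and the other actins are uncertain.

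**Figure D1:**
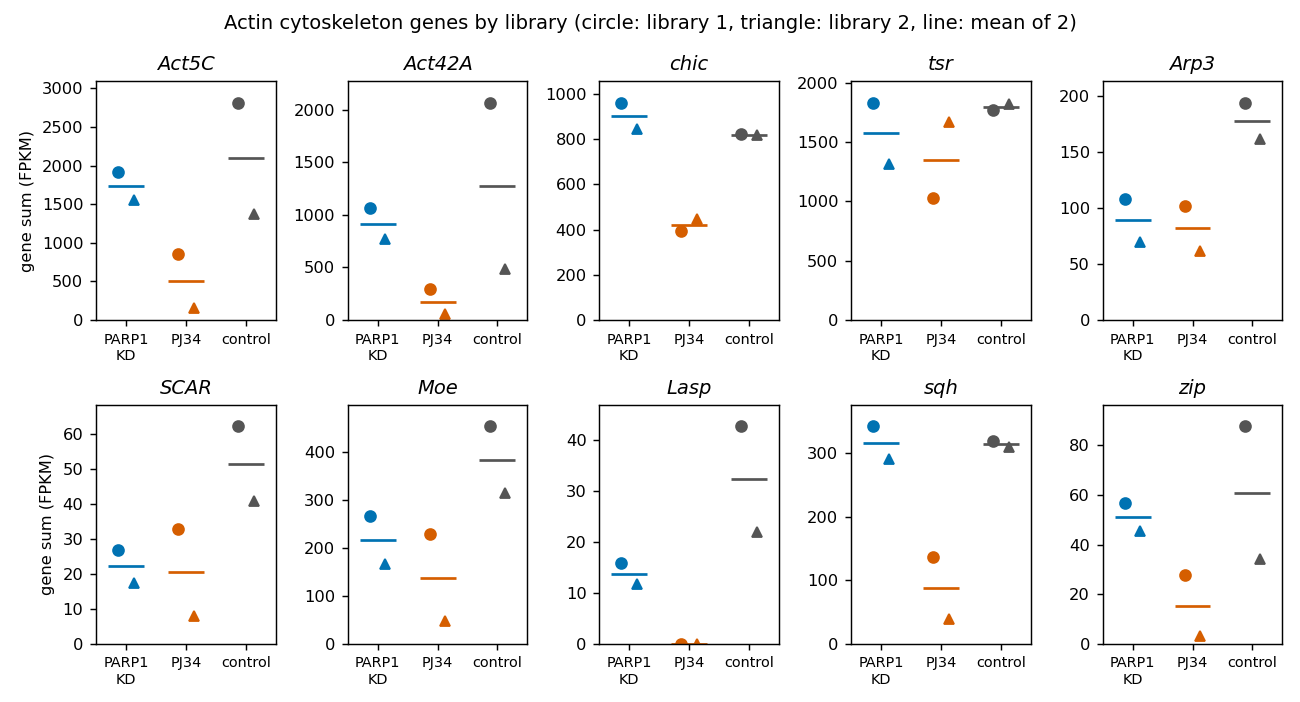
Gene sums in FPKM (linear axes from 0) of the 10 genes in the 2 libraries of PARP1 KD, PJ34 and control, with circles for library 1, triangles for library 2 and lines for the mean of 2. In every panel the PJ34 points lie below both controls. The log2 difference is smallest for tsr, with 1026 and 1670 FPKM under PJ34 against 1770 and 1819 FPKM in the controls. Lasp is listed at 0 in both PJ34 libraries.

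In profilin and cofilin PJ34 library 2 did not lie below PJ34 library 1, as it did for the actins. Profilin is encoded by chic (CG9553; 2L, 5972899 to 5981025), which had 960 and 843 FPKM under PARP1 KD, 396 and 447 FPKM under PJ34 and 823 and 816 FPKM in the controls. The 3 groups did not overlap, but PARP1 KD library 2 (843 FPKM) lay nearer to the controls than to PARP1 KD library 1. Both PARP1 KD libraries were above both controls for 10.5% of all genes. Both PJ34 libraries were below both controls for 54.1% of all genes. Mean levels were 902 ± 82.9 FPKM under PARP1 KD, 421 ± 36.5 FPKM under PJ34 and 820 ± 4.55 FPKM in the controls (SD, n = 2 each). The log2 difference from control was 0.13 under PARP1 KD (SE 0.39, limma adjusted p = 0.9996) and −0.96 under PJ34 (SE 0.39, adjusted p = 0.156). Cofilin is encoded by tsr (twinstar, CG4254; 2R, 19931970 to 19934359), which had 1831 and 1316 FPKM under PARP1 KD, 1026 and 1670 FPKM under PJ34 and 1770 and 1819 FPKM in the controls. PJ34 library 2 held more tsr than PJ34 library 1, and the PARP1 KD libraries lay on either side of the controls. The log2 difference of tsr was −0.45 (SE 0.45, limma adjusted p = 0.420), the smallest of the 10 under PJ34, and its value turned positive under quantile normalization (0.23) and median centring (0.68). Set against cofilin, Act5C stood at 1.05 and 1.18 times the FPKM of tsr under PARP1 KD, 0.831 and 0.0964 times under PJ34 and 1.59 and 0.757 times in the controls. By rank in its own library, tsr was the 94th and 105th most abundant gene under PARP1 KD, the 103rd and 64th under PJ34 and the 94th and 88th in the controls. Act5C ranked 92nd and 99th under PARP1 KD, 116th and 451st under PJ34 and 66th and 99th in the controls.

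Arp3 and SCAR, which act in filament branching, had overlapping levels under PARP1 KD and PJ34. Arp3 (CG7558; 3L, 8106587 to 8109000) encodes an actin-related subunit of the Arp2/3 complex. It had 108 and 70.1 FPKM under PARP1 KD, 102 and 61.7 FPKM under PJ34 and 194 and 162 FPKM in the controls, so all 4 treated libraries lay below both controls. The log2 difference of Arp3 from control was −1.02 under PARP1 KD (SE 0.46, limma adjusted p = 0.9996) and −1.15 under PJ34 (SE 0.46, adjusted p = 0.155). SCAR (CG4636; 2L, 10976773 to 10982396, overlapping the spans of ATPsynG and piwi) encodes the WAVE protein that activates the complex. Its level was 26.8 and 17.4 FPKM under PARP1 KD, 32.9 and 7.90 FPKM under PJ34 and 62.1 and 40.8 FPKM in the controls. Again the treated and control libraries did not overlap. Of all genes, 34.9% had both PARP1 KD libraries below both controls and 54.1% had both PJ34 libraries below them. The share with both at once was not counted. The log2 difference of SCAR was −1.18 under PARP1 KD (SE 0.68, limma adjusted p = 0.9996) and −1.56 under PJ34 (SE 0.68, adjusted p = 0.159). Between PJ34 and PARP1 KD the difference was −0.13 (SE 0.46) for Arp3 and −0.38 (SE 0.68) for SCAR. Both of these differences had standard errors larger than themselves, and both became positive when PJ34 library 2 was left out, with 0.23 for Arp3 and 0.58 for SCAR.

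Moe and Lasp link filaments to the membrane and to adhesion sites. Moe (moesin, CG10701; X, 8767635 to 8792343) encodes the only ezrin, radixin and moesin protein of the fly. It had 265 and 165 FPKM under PARP1 KD, 229 and 46.9 FPKM under PJ34 and 453 and 314 FPKM in the controls. All treated libraries were lower than the controls, as were those of 34.9% of all genes under PARP1 KD and 54.1% under PJ34. The log2 difference of Moe was −0.85 under PARP1 KD (SE 0.66, limma adjusted p = 0.9996) and −1.85 under PJ34 (SE 0.66, adjusted p = 0.145). Lasp (CG3849; 3L, 16669505 to 16704752, overlapping the span of CG9692) encodes a LIM and SH3 domain protein that binds actin. It had 15.8 and 11.7 FPKM in the PARP1 KD libraries, was listed at 0 in both PJ34 libraries and had 42.6 and 21.9 FPKM in the controls. Both of its transcript rows were at 0 under PJ34. A listed 0 may be a missing estimate: 47 of the 7308 genes were at 0 in at least 1 library, and 6 of these had more than 10 FPKM in another library of the same group, among them eIF5, a translation initiation factor, with 0 and 97.7 FPKM in the controls. Lasp was 1 of 7 genes listed at 0 in both PJ34 libraries and 1 of 3 that had more than 10 FPKM in each of the other 4. It was the only member that passed the test, as lower in PJ34 than in control (limma adjusted p = 0.0123) and lower in PJ34 than in PARP1 KD (adjusted p = 0.0230). The fitted log2 difference from control was −4.98 with a pseudocount of 1, −8.26 with 0.1 and −2.84 with 5, so its size was set by the pseudocount and no fold is given. Without a filter on low values Lasp no longer passed against control (adjusted p = 0.0764) or against PARP1 KD (adjusted p = 0.0709), and the comparison with PARP1 KD was also lost without PARP1 KD library 1 (adjusted p = 0.330) or library 2 (adjusted p = 0.358).

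The 2 genes of non-muscle myosin II differed in how far apart the controls were. Its regulatory light chain is encoded by sqh (spaghetti squash, CG3595; X, 6117093 to 6119196), which had 342 and 291 FPKM under PARP1 KD, 136 and 38.3 FPKM under PJ34 and 320 and 310 FPKM in the controls. The controls nearly coincided, the PARP1 KD libraries lay on either side of them and both PJ34 libraries were lower. The log2 difference of sqh was 0.0029 under PARP1 KD (SE 0.56, limma adjusted p = 0.9996) and −2.11 under PJ34 (SE 0.56, adjusted p = 0.107). The heavy chain gene zip (zipper, CG15792; 2R, 20878468 to 20898996), with the longest transcripts of the 10, had 56.6 and 45.5 FPKM under PARP1 KD, 27.7 and 3.02 FPKM under PJ34 and 87.6 and 34.2 FPKM in the controls. Its controls differed more than the PARP1 KD libraries, which lay between them, and PJ34 library 2 held 0.11 of the level of PJ34 library 1. The log2 difference of zip under PJ34 was −2.38 (SE 0.85, limma adjusted p = 0.145). On the FPKM scale the light chain exceeded the heavy chain 6.05 and 6.38 times under PARP1 KD, 4.91 and 12.7 times under PJ34 and 3.65 and 9.06 times in the controls.

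Across the 10 genes, PJ34 against control gave 10 log2 differences below 0, against 79.9% of all genes tested. Both PJ34 libraries were below both controls for 10 of 10 members, against 54.1% of all genes. The unadjusted p was under 0.05 for 9 of 10, all lower and all but tsr, against 25.3% of all genes, and 1 of 10, Lasp, passed after adjustment, against 0.151% of all genes. The median of the members was −1.98, beside −1.08 over all genes. Relative to that median of all genes the members other than Lasp ran from −1.92 for Act42A and −1.33 for Act5C through −1.30 for zip and −1.03 for sqh to −0.07 for Arp3, 0.12 for chic and 0.62 for tsr. Another scaling of the libraries moved the median of all genes from that value to −0.17 (quantile normalization) or 0.06 (median centring). Under median centring chic (0.18) and tsr (0.68) were above 0 and Arp3 was at −0.01, while Act42A stayed at −1.86 and Act5C at −1.27. The members took 0.753% and 0.618% of all FPKM under PARP1 KD, 0.363% and 0.250% under PJ34 and 1.21% and 0.626% in the controls.

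**Figure D2:**
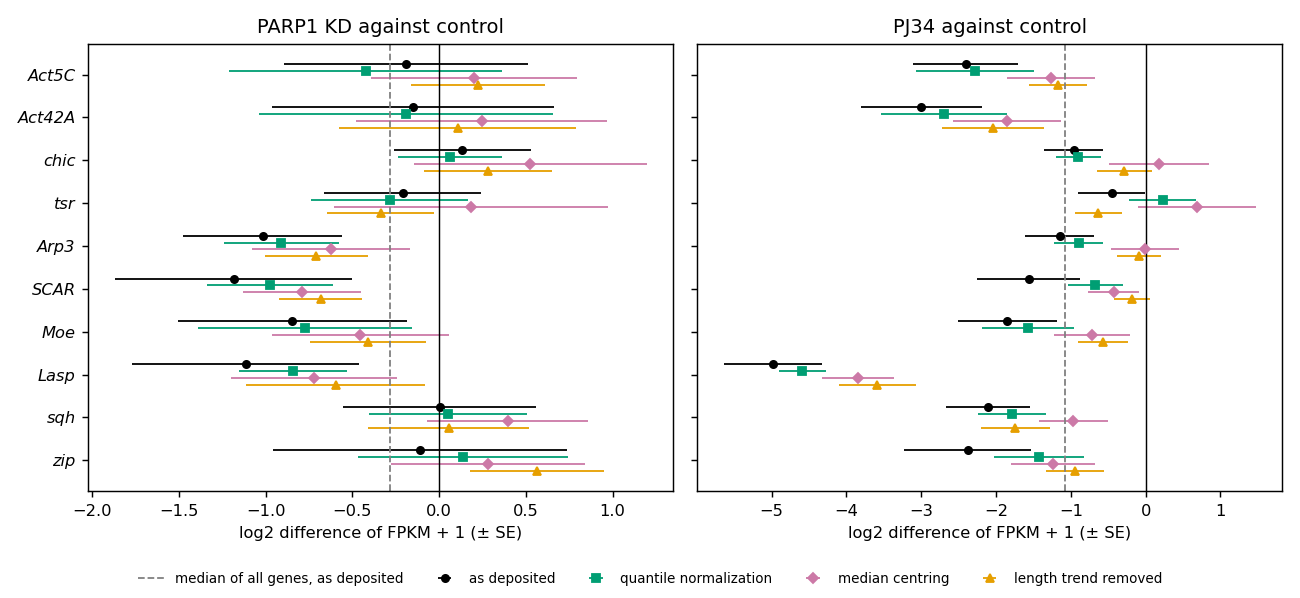
Log2 differences of FPKM + 1 (x axis, points with SE from limma) of the 10 genes for PARP1 KD and for PJ34, each against control, as deposited and under 3 other scalings; the dashed line is the median of all genes as deposited. Under PJ34 chic and tsr cross 0 under median centring, at 0.18 and 0.68, and tsr also under quantile normalization, at 0.23. All other members stay below 0 under each scaling shown, with Arp3 at −0.01 under median centring.

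PJ34 library 2 stood apart from PJ34 library 1 for most members. Its level was 0.11 to 0.28 of that of library 1 for zip, Act42A, Act5C, Moe, SCAR and sqh and 0.60 for Arp3, but 1.13 for chic and 1.63 for tsr. With PJ34 library 1 left out, 8 members, all but chic and tsr, passed against control, but so did 5106 of 7308 genes. With PJ34 library 2 left out, 236 genes and, of the members, only Lasp passed. Single libraries left in a group are assumed in these fits to vary like the other groups.

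The size of the differences also moved with transcript length. For PJ34 against control the median log2 difference was 0.18 over 1263 genes with transcripts under 1000 bases, −0.86 over 2557 genes of 1000 to 2000 bases, −1.39 over 2311 genes of 2000 to 4000 bases and −1.45 over 903 longer genes. For PARP1 KD against control these medians were 0.15, −0.19, −0.47 and −0.62 in the same order. The member with the shortest transcript, tsr (735 bases), had the smallest difference under PJ34. However, all 10 members lay below the median of their length class. Among them were sqh (1097 bases, −2.11), Act42A (1626 bases, −3.00), Act5C (2252 bases, −2.41) and zip (6362 bases, −2.38). The gaps were smaller for chic (1338.5 bases, −0.96) and SCAR (2873.5 bases, −1.56). After a smooth length trend was subtracted from each library, all 10 PJ34 differences were still below 0 and, apart from Lasp, ran from −2.04 for Act42A and −1.74 for sqh to −0.18 for SCAR and −0.09 for Arp3. Lasp still passed (limma adjusted p = 0.0274), and sqh had an adjusted p of 0.0843. Beyond these values, the part of PJ34 library 2, of the spread between the controls and of transcript length in the result was not tested.

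**Figure D3:**
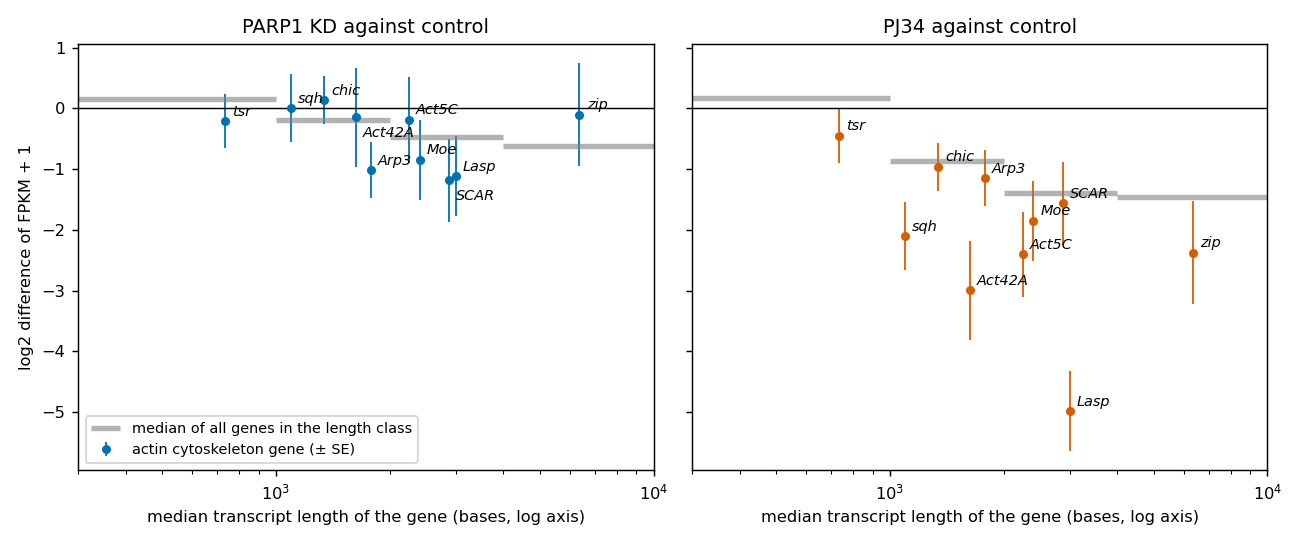
Log2 difference of FPKM + 1 against control (y axis, points with SE) over the median transcript length of each of the 10 genes (log axis, in bases) for PARP1 KD and PJ34, with gray bars for the median of all genes in 4 length classes. The gray bars descend with length, to −0.62 under PARP1 KD and −1.45 under PJ34. Under PJ34, sqh, Act42A, Act5C, zip and Lasp lie well under the bar of their class.

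Under PARP1 KD no member passed the test, and 0 of 7308 genes (0% higher and 0% lower) did, against 209 at an unadjusted limma p under 0.05 and 23 called when only the 4 libraries of this comparison were fitted. The log2 difference was below 0 for 8 of 10 members, against 71.9% of all genes, and 0 of 10 was lower at an unadjusted p under 0.05, against 2.50% of all genes. The median was −0.20 beside −0.28 over all genes. The PARP1 KD libraries were both below both controls for 4 of 10 members, Arp3, SCAR, Moe and Lasp, against 34.9% of all genes. They were both above for 1, chic, against 10.5% of all genes. The log2 difference of the 4 lower members ran from −1.18 for SCAR through −1.11 for Lasp (SE 0.65) and −1.02 for Arp3 to −0.85 for Moe. The other 6 lay between −0.21 for tsr and 0.13 for chic, each smaller than its standard error. After the length trend was subtracted, the 4 stood at −0.71 for Arp3, −0.68 for SCAR, −0.60 for Lasp and −0.41 for Moe.

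When PJ34 was set against PARP1 KD, the actins and the myosin genes had the larger differences, apart from Lasp with its listed 0. Both PJ34 libraries were below both PARP1 KD libraries for 6 of 10 members, Act5C, Act42A, chic, Lasp, sqh and zip, against 43.8% of all genes. All 10 log2 differences were below 0, against 72.3% of all genes. The same 6 had an unadjusted p under 0.05, against 16.4% of all genes, and Lasp alone passed after adjustment, against 0.972% of all genes. The log2 difference was −2.85 for Act42A (limma adjusted p = 0.0888), −2.27 for zip (adjusted p = 0.155), −2.21 for Act5C (adjusted p = 0.113), −2.11 for sqh (adjusted p = 0.0740) and −1.10 for chic (adjusted p = 0.145). With the length trend subtracted, sqh (−1.79, limma adjusted p = 0.0434) and zip (−1.51, adjusted p = 0.0428) passed, but so did 1350 of 7034 genes, 537 of them lower. Fitted with only these 4 libraries, Act5C (adjusted p = 0.0180), Act42A (adjusted p = 0.00474) and sqh (adjusted p = 0.0194) passed beside Lasp, among 457 of 7308 genes, 277 of them lower. The PJ34 libraries enter this comparison and that with control alike, so the values are not independent of those above.

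The transcripts of 4 members differed in their shares of the gene sum. These shares are estimates, since the transcripts of a gene overlap and the authors' software divided the fragments among them. Of the 4 Act5C transcripts, all with a coding length of 1128 bases in the newer BDGP6 annotation, Act5C-RD carried 95.9% and 96.3% under PARP1 KD, 68.4% and 89.6% under PJ34 and 77.1% and 92.6% in the controls. Act5C-RB, the larger part of the rest in the PJ34 and control libraries, carried 1.30% and 0.649% under PARP1 KD, 30.6% and 8.89% under PJ34 and 21.4% and 4.24% in the controls. Under PARP1 KD more of the rest was Act5C-RC, with 2.81% and 3.07%. Both PARP1 KD libraries were thus lower in Act5C-RB than every other library, while the PJ34 libraries lay on both sides of control library 1. The Act5C-RB row had a log2 difference of −3.48 under PARP1 KD (SE 1.44, limma adjusted p = 0.656).

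In Moe the shares of Moe-RC, whose coding length is 1536 bases, and Moe-RJ, with 1734 bases, ran opposite to each other. Moe-RC carried 43.4% and 44.8% under PARP1 KD, 0.346% and under 0.01% under PJ34 and 0.259% and 37.1% in the controls. Moe-RJ carried 30.2% and 32.0% under PJ34 and 34.4% and 0.386% in the controls, and was near 0 in both PARP1 KD libraries. Control library 1 thus resembled the PJ34 libraries and control library 2 the PARP1 KD libraries. In FPKM, Moe-RC stood at 115 and 74.0 under PARP1 KD and at 1.17 and 117 in the controls, and the log2 difference of its row was 2.54 (SE 1.58, limma adjusted p = 0.729). The most even of the larger transcripts, Moe-RD, carried 27.4% and 29.8% under PARP1 KD, 49.5% and 33.2% under PJ34 and 41.0% and 44.1% in the controls. In zip, zip-RD carried 3.55% and 6.37% under PARP1 KD, 18.1% and 54.1% under PJ34 and 17.6% and 4.04% in the controls, and zip-RC nearly all the rest. Here too control library 1 was close to PJ34 library 1 and control library 2 lay with the PARP1 KD libraries.

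In chic the transcripts chic-RA and chic-RB, both with a coding length of 378 bases, made up most of the sum. The share of chic-RA was 46.3% and 58.2% under PARP1 KD, 42.2% and 59.4% under PJ34 and 35.5% and 41.1% in the controls. It was higher in all 4 treated libraries than in either control, with PJ34 library 1 close to control library 2, and the libraries of 1 treatment differed by 11.9 points under PARP1 KD and 17.2 points under PJ34. The shares are given as a description, with no test; an exact permutation test of 2 libraries against 2 cannot give a two-sided p under 0.33. When transcript rows were fitted in limma in place of gene sums, none of the members' rows passed against control for either treatment. Between PJ34 and PARP1 KD, Act5C-RC (−3.16, adjusted p = 0.0427) and Lasp-RB (adjusted p = 0.0291) did, among 268 of 9794 rows, 166 of them lower.

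**Figure D4:**
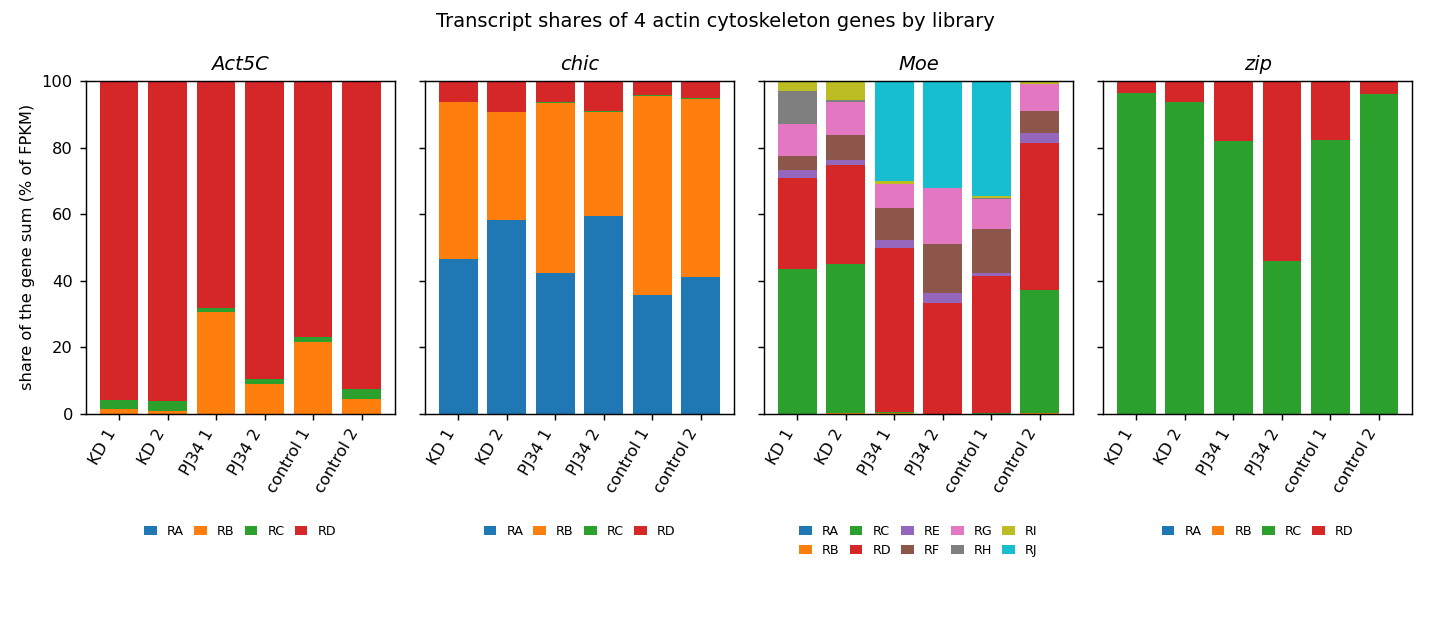
Stacked bars of each transcript's share of its gene's summed FPKM (y axis, in %) in the 2 libraries of PARP1 KD, PJ34 and control, for 4 of the 5 members with more than 1 transcript row. For Moe, the green part (Moe-RC) is 37.1% or more in 3 libraries and at most 0.346% in the other 3, where Moe-RJ takes 30.2% to 34.4%.

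The other genes of the actin cytoskeleton were examined in 8 lists that together held 65 genes beside the 10 members. Of these, 62 were in the table and 54 were tested. Under PJ34 against control, 1 of 54 passed as higher, against 0.493% of all genes, and 0 as lower, against 0.151%. At an unadjusted limma p under 0.05, 22 were lower, against 25.3% of all genes, and 4 higher, against 5.84%. Below 0 were 47, against 79.9% of all genes, with a median of −1.55 beside −1.08 over all genes. Under PARP1 KD 0 of 54 passed, as did 0 of 7308 genes, and the median was −0.53 beside −0.28 over all genes. Of the 54, 0 had an unadjusted limma p under 0.05, against 209 of 7308 genes. Between PJ34 and PARP1 KD 3 passed as higher, against 1.60% of all genes, and 0 as lower, against 0.972%. The median was −0.89 beside −0.67 over all genes.

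The gene that passed against control was Arpc3B, 1 of 2 fly genes for the ARPC3 subunit of the Arp2/3 complex. It had 13.9 and 14.0 FPKM under PARP1 KD, 173 and 254 FPKM under PJ34 and 7.05 and 11.1 FPKM in the controls. Both PJ34 libraries were far above all others, with a log2 difference of 4.42 from control (limma adjusted p = 0.00688) and 3.82 from PARP1 KD. Its paralog Arpc3A had 132 and 118 FPKM under PARP1 KD, 53.0 and 39.5 FPKM under PJ34 and 72.2 and 106 FPKM in the controls, and did not pass. The pair are paralogs, so fragments shared between them are uncertain. Of the other 5 subunit genes beside Arp3, none passed. Arpc1, Arpc5 and Arp2 had log2 differences of −2.04, −1.91 and −1.46 under PJ34, Arpc2 had −0.77, and Arpc4 had 0.27. The median transcript length was 693 bases for Arpc3B, 712 for Arpc4, 927.5 for Arpc5 and 968.5 for Arpc3A. Genes under 1000 bases had a median log2 difference of 0.18 under PJ34 against control.

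Among the genes of filament assembly and turnover, GMF, which encodes a cofilin-related debranching factor, passed only between PJ34 and PARP1 KD. It had 105 and 77.1 FPKM under PARP1 KD, 307 and 460 FPKM under PJ34 and 90.6 and 114 FPKM in the controls. The log2 difference was 2.05 from PARP1 KD (limma adjusted p = 0.0413) and 1.87 from control (adjusted p = 0.0880), and the span of GMF overlaps CG17328. The gene sn (singed), which encodes the bundling protein fascin, had 1.51 and 1.14 FPKM under PARP1 KD, 41.2 and 12.6 FPKM under PJ34 and 3.79 and 1.20 FPKM in the controls. It was 3.37 above PARP1 KD on the log2 scale (limma adjusted p = 0.0425), 2.88 above control (adjusted p = 0.103), and its span overlaps sws.

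In the remaining lists no gene other than the members passed. The log2 differences under PJ34 against control ran from −1.95 to 1.50 for the 8 WAVE and WASP regulators, from −1.84 to −1.04 for the 3 formins tested and from −2.46 to 0.01 for the 11 myosins and their regulators. The higher end of the first list was HSPC300, a small subunit of the WAVE complex. It had 195 and 189 FPKM under PARP1 KD, 340 and 594 FPKM under PJ34 and 120 and 209 FPKM in the controls. HSPC300 (466.5 bases) is also in the length class under 1000 bases. In the list of ezrin, radixin and moesin proteins and adhesion linkers, 10 of 11 were below 0 under PJ34, against 79.9% of all genes. The exception, Slik, was listed at 0 in control library 1 and had 59.3 FPKM in control library 2. Slik is the kinase that activates moesin.

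Tubulin genes, the monomers of the other main filament system of these cells, were set beside the actins. All 5 were below 0 under PJ34 against control, against 79.9% of all genes, with a median of −2.35 beside −1.08 over all genes. Each had an unadjusted limma p under 0.05, against 25.3% of all genes lower, and 0 of 5 passed after adjustment, against 0.151% lower. Their summed level was 3551 and 3298 FPKM under PARP1 KD, 1013 and 204 FPKM under PJ34 and 3808 and 1457 FPKM in the controls. The actin pair summed to 2990 and 2315 FPKM under PARP1 KD, 1145 and 214 FPKM under PJ34 and 4880 and 1864 FPKM in the controls. In both sums the order of the 6 libraries was the same.

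**Figure D5:**
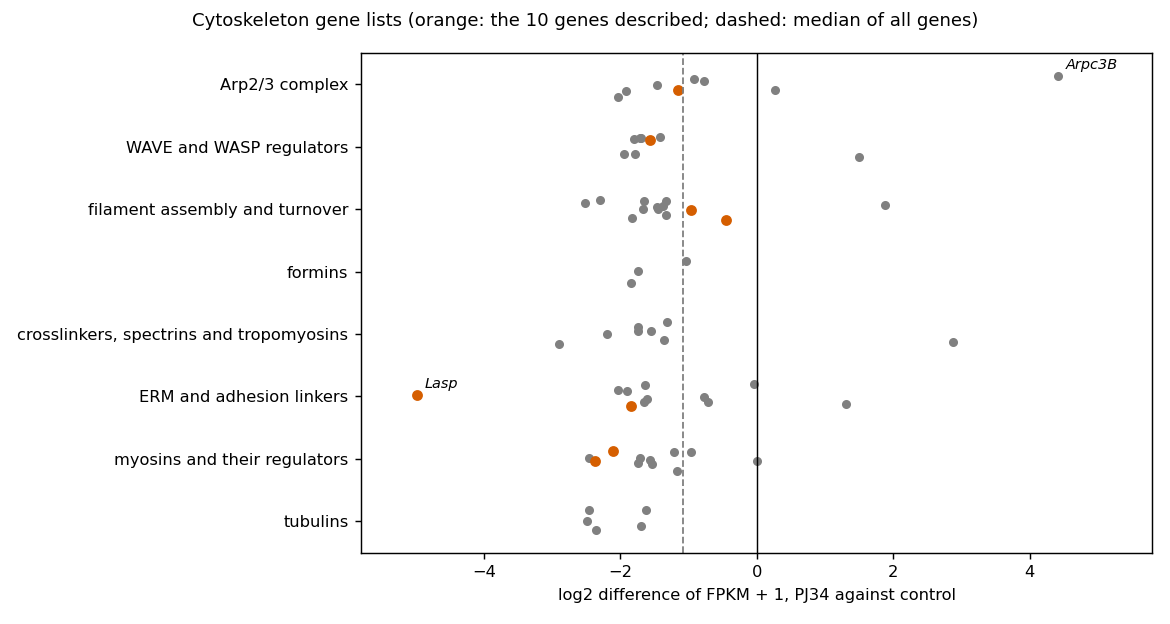
Log2 difference of FPKM + 1 between PJ34 and control (x axis) of each tested gene in 8 cytoskeleton lists (rows). Those of the 10 genes described that are in a list are in orange and all others in gray, with the median of all genes dashed at −1.08. Act5C and Act42A are in none of these lists and are not drawn. Most points lie between −3 and 0; the named genes, Lasp and Arpc3B, are those that passed an adjusted limma p of 0.05.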

How the data were processed

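The authors sequenced RNA of 6 S2 cell samples, aligned the reads to dm3 with TopHat2 2.0.10 and Bowtie2 2.1.0.0, and estimated transcript levels with Cufflinks 2.1.1 and Cuffdiff on the FlyBase annotation. The deposited values were FPKM per transcript, normalized by the authors for length and library size. The table held no fragment totals, so depth was inferred from low values, assuming that the lowest common values were 1 fragment. Transcript rows of a CG number were summed. The 7308 genes that averaged 1 FPKM or more were fitted as log2(FPKM + 1), a scale on which differences of low genes come out too small, in limma 3.58.1 (R 4.3.3) over all 6 libraries, with a mean per group, an intensity trend and p-values adjusted over all genes by the Benjamini-Hochberg method (threshold 0.05). The fit was run on simulated data with independent errors and a set of genes raised under PJ34. Those data held no shift of a whole library or with length, so they cannot show how the fit handles such shifts. The controls are described as biological replicates, while the 2 libraries of a treatment differed in dose, so p-values measure only the spread between these libraries, which may be technical and from which dose cannot be told apart.

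The members and lists were chosen with earlier results of these data known. All members were named, and of the other lists the genes that passed. Arpc3A, HSPC300, Slik and the other Arp2/3 subunits, Pxn, Col4a1, eater, elav and eIF5 were named after their values were seen. Of 65 listed genes, Fhos, Myo10A and Strn-Mlck were not matched, and Sra-1 was matched as Cyfip. Lengths came from the BDGP6 annotation (96.3% of tested genes), and coordinates from the deposited dm3 table. 1 further list is not reported here. Strand was not used, so overlapping genes are uncertain. Alternatives were other pseudocounts, filters, scalings, length correction, 4 libraries, transcript rows and leaving out each library. Tables and figures were made in Python 3.11.15 (pandas 2.3.3, numpy 2.4.6, matplotlib 3.10.9).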

Additional observations from a re-analysis of the deposited data

How the results depend on the processing

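The number of genes called depended on the processing more than the members' directions did. For PARP1 KD against control, 0 genes were called, 23 with only the 4 libraries compared, 15 with transcript rows, and 0 to 72 when a library was left out (72 without control library 2). For PJ34 against control, 47 genes were called (36 higher and 11 lower), 27 and 76 with pseudocounts of 0.1 and 5, 7 without a filter on low values, 164 after quantile normalization, 216 with the length trend removed, 15 with only 4 libraries and 5 with transcript rows. Median centring gave 54 higher and 7 lower. Leaving out a library gave 25 (without control library 1) to 5106 (without PJ34 library 1). For PJ34 against PARP1 KD, 188 were called, 69 and 284 with pseudocounts of 0.1 and 5, 6 without a filter, 117 with a mean of at least 5 FPKM, 555 after quantile normalization, 117 after median centring, 1350 with the length trend removed and 457 with only 4 libraries. Leaving out a library gave 1 (without either PARP1 KD library) to 4222 (without PJ34 library 1). The cause of these changes was not tested.

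Of the members' values and transcript shares under alternatives, 339 kept their direction and side of the threshold (shares: moved by less than 1 SD), 21 passed only under the alternative, 4 passed only with the main settings and 32 changed sign. With 2 libraries in a group, leaving out 1 always moves a mean share by less than 1 SD. Those shares are therefore among the 339 whatever their spread. The zip-RC share under PJ34, for example, went from 63.9% to 45.9% or 81.9%. Sign changes under PARP1 KD against control were seen after median centring (Act5C 0.20, Act42A 0.24, tsr 0.18, zip 0.28), length correction (Act5C 0.22, Act42A 0.11, zip 0.57) and quantile normalization (zip 0.14). Leaving out a library gave −0.71 to 0.32 for Act5C, −1.19 to 0.90 for Act42A, −0.45 to 0.029 for tsr, −0.11 to 0.12 for sqh and −0.78 to 0.56 for zip. Under PJ34 against control they were seen for chic (0.18) and tsr (0.68) after median centring and for tsr (0.23) after quantile normalization. Between PJ34 and PARP1 KD they were seen after quantile normalization (tsr 0.51, Arp3 0.013, SCAR 0.30), median centring (tsr 0.50, Arp3 0.61, SCAR 0.37) and length correction (Arp3 0.62, SCAR 0.50), and leaving out a library gave −0.60 to 0.11 for tsr, −0.49 to 0.23 for Arp3, −1.34 to 0.58 for SCAR and −2.14 to 0.13 for Moe. Lasp lost its call against control only without the filter on low values and with transcript rows (Lasp-RB, limma adjusted p = 0.0548). No paired analysis was possible because in the sample titles all treated libraries carry the replicate number 1, so the groups share fewer than 2 numbers; the numbers of the table's columns only name them.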
